A study of Rattus norvegicus with 22 samples.

Results

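The nuclear genes of the mitochondrial ribosome and the respiratory chain are described here in the livers of young adult male rats whose mothers were obese (MO, maternal obesity, from an obesogenic diet) or ate a control diet. The male table was searched for symbols that start with Mrpl, Mrps, Nduf, Uqcr, Atp5, Timm or Tomm, or with Cox and a digit, and 1 row was kept for each symbol. This gave 23 genes of the 1325 symbols, on 1365 rows, of that table. They were 7 Mrpl genes and 7 Mrps genes of the mitochondrial ribosome, 6 Nduf genes of complex I, and Uqcr11, Cox15 and Atp5i. No Timm or Tomm symbol was listed, so the table held none of the genes of the import translocases that the search was meant to reach, and 0 of the 23 genes stood among the 69 rows of the female table. The 2 tables hold rows that the authors had already selected for a difference, and genes outside them are not analysed here.

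All animals were Wistar rats at postnatal day 110, and the only factor that the labels give between the groups used here was the diet of the mother. The male groups were 6 offspring of control mothers (control males 1 to 6) and 5 offspring of obese mothers (MO males 1 to 5), with 1 liver library each. The labels do not say which animals were litter mates, and the p-values cover only the spread among the animals sampled. Levels are in RPM, the reads of a gene scaled to the same library total, with the 1 that the authors had added taken off again. They are not scaled to gene length and are compared between animals only.

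Most proteins of the mitochondrion are made in the cytosol from nuclear genes and imported, while mitochondrial DNA supplies a small set of respiratory chain subunits together with ribosomal and transfer RNAs. The mitochondrial ribosome, with a large subunit (Mrpl genes) and a small subunit (Mrps genes), translates that small set. Complexes I, III and IV pass electrons to oxygen and pump protons, and the ATP synthase uses the proton gradient, so both genomes have to contribute to the same complexes. The liver draws on this system for urea synthesis, gluconeogenesis and fatty acid oxidation. The 23 genes lie on 12 chromosomes in RefSeq, with at most 4 on the same chromosome (Cox15, Mrpl23, Mrpl49 and Ndufs8 on chromosome 1).

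All 23 genes were lower in MO than in control males, with log2 fold changes from -0.92 to -0.48 and a median of -0.55. Every one of them passed the limma threshold, an adjusted p of 0.05 over the table, as did 96.5% of all 1365 rows in the same direction, so the count says nothing particular about these genes. Each row had been listed for a deposited p under 0.05 and a change of at least 0.48 on the log2 scale, which is the contrast described here. The fold changes and p-values are therefore a description of selected rows. The nearest to that bound were Ndufb3 at -0.48 and Ndufb2 at -0.49, and genes just outside it are not analysed here. A decrease of at least 1 on the log2 scale was reached by 0 of the 23 genes and by 5.2% of the rows.

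The 23 genes together took 933 ± 167 RPM (SD, n = 6) in the controls against 640 ± 126 RPM (SD, n = 5) in the MO group. The single animals overlapped in this sum, since controls ranged from 721 to 1226 RPM and MO males from 472 to 804 RPM. The 14 ribosomal protein genes went from 357 ± 61.8 to 240 ± 39.8 RPM and the 9 respiratory chain genes from 576 ± 106 to 400 ± 86.3 RPM (SD, n = 6 and 5). The MO mean was thus 0.67 and 0.69 of the control mean, beside 0.63 for the sum of all listed rows. By subfamily the median log2 fold change was -0.52 for the Mrpl genes, -0.53 for the Mrps genes and -0.56 for the Nduf genes, against -0.58 for the 1317 lower rows of the table. In bulk tissue, fewer cells of a type and less RNA per cell cannot be told apart.

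**Figure D1:**
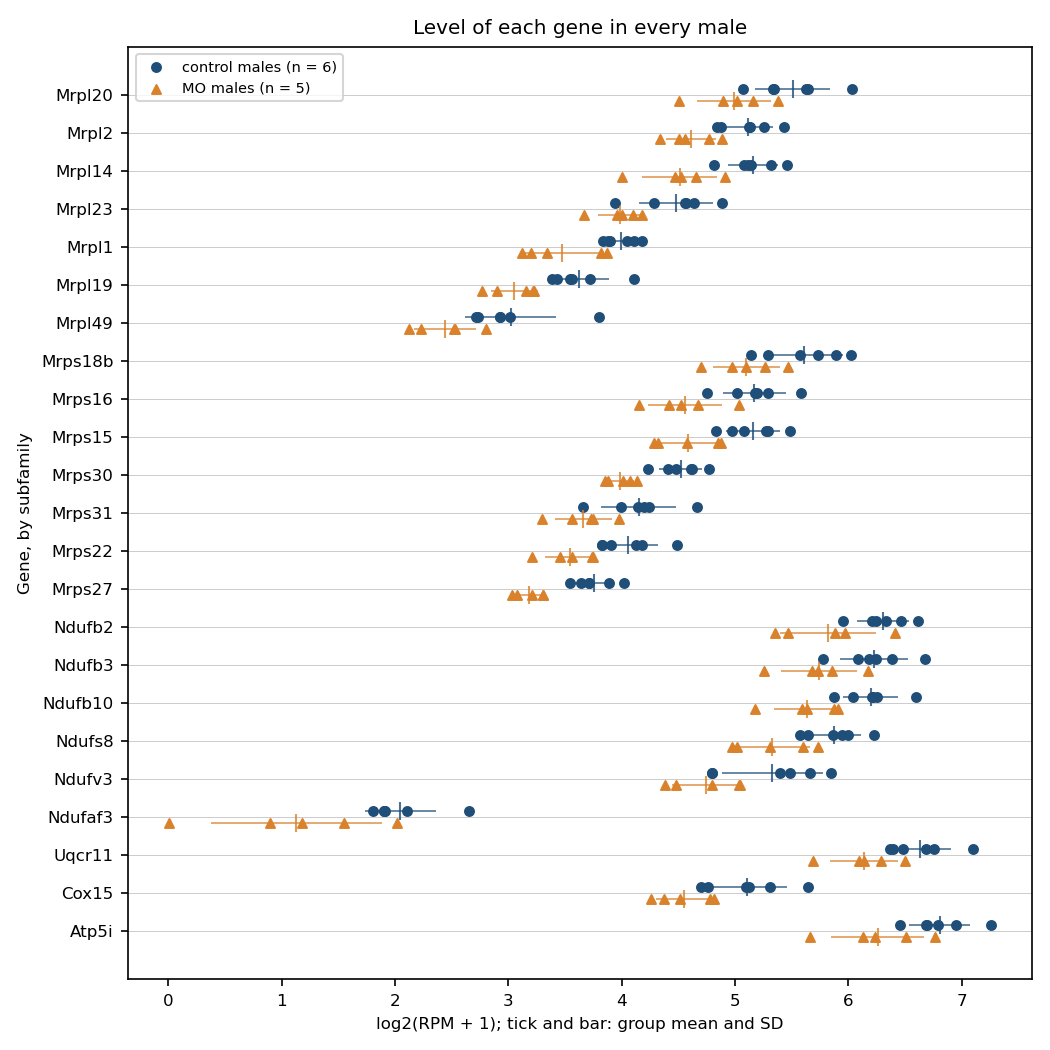
Level of each of the 23 genes in every male, as log2(RPM + 1) on the horizontal axis, with 6 control males (circles) and 5 MO males (triangles) and the mean and SD of each group. In Mrpl19, Mrps22, Mrps27 and Mrps30 the groups do not overlap, and in the other 19 genes at least 1 MO male lies within the control range.

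In 4 of the 23 genes, Mrpl19, Mrps22, Mrps27 and Mrps30, every MO male lay below every control male. The share of such rows over the whole table was 29.9%. All 4 were ribosomal protein genes, and 0 of the 9 respiratory chain genes had separate groups. Single libraries moved the count. Without control male 2 it was 10, with Ndufb10 among them, beside 41.8% of the rows, and without MO male 1 it was 9, with Uqcr11 among them, beside 37.9% of the rows. The difference between ribosomal and respiratory chain genes was not tested.

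Among the large subunit genes, Mrpl14, whose protein lies at the interface with the small subunit, had the largest decrease. Control males had 27.2, 33.96 and 43.01 RPM of it (lowest, median and highest), and MO males 1 to 5 had 29.03, 21.96, 21.1, 24.1 and 15.1 RPM. Only MO male 1 reached the control range, and the log2 fold change was -0.65 ± 0.18 (SE, adjusted p = 0.0065 in limma).

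Mrpl19 was the large subunit gene with separate groups. Its lowest, median and highest control levels were 9.42, 10.7 and 16.3 RPM, and the MO males had 8.39, 5.79, 8.29, 7.93 and 6.47 RPM. Control male 6 stood above the other controls, and the log2 fold change was -0.57 ± 0.17 (SE, adjusted p = 0.0082 in limma). Mrpl49, a protein found only in mitochondrial ribosomes, was at 5.58, 6.61 and 12.96 RPM in controls and at 4.78, 4.75, 5.999, 3.68 and 3.37 RPM in MO males, a log2 fold change of -0.58 ± 0.20 (SE, adjusted p = 0.011 in limma). The highest control value was again that of control male 6, and 4 of 5 MO males lay below every control.

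Mrpl1, the protein of the ribosome's L1 stalk, split the MO group. Controls were at 13.3, 14.7 and 17.2 RPM, and MO males 1 to 5 at 13.7, 8.20, 7.72, 13.1 and 9.15 RPM. MO males 1 and 4 were near the lowest controls and MO males 2, 3 and 5 well below them, with a log2 fold change of -0.52 ± 0.18 (SE, adjusted p = 0.011 in limma). Mrpl2, which lies near the peptidyl transferase centre, went from 33.9 ± 5.46 RPM in controls to 23.7 ± 3.72 RPM in MO males (means with SD, n = 6 and 5). The 4 MO males other than MO male 1 were below every control, and the log2 fold change was -0.50 ± 0.17 (SE, adjusted p = 0.011 in limma).

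Mrpl20 and Mrpl23 overlapped more between groups. Mrpl20, also of the large subunit, was at 32.5, 43.96 and 64.3 RPM in controls and 34.8, 31.3, 28.7, 40.5 and 21.7 RPM in MO males, so that MO males 1 and 4 lay within the control range. Its log2 fold change was -0.52 ± 0.19 (SE, adjusted p = 0.015 in limma). Mrpl23, which lines the exit of the nascent chain tunnel, had the smallest decrease of the subfamily, -0.50 ± 0.18 (SE, adjusted p = 0.013 in limma). Its lowest control, control male 2 at 14.4 RPM, was below 4 of the 5 MO males, which had 17.1, 15.004, 14.6, 16.1 and 11.7 RPM, and the other 5 controls were above all of them.

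Of the genes named for the small subunit, Mrps27, an RNA-binding protein of the pentatricopeptide repeat family, had the smallest adjusted p of the 23 genes. Controls had 10.7, 12.1 and 15.2 RPM and MO males 8.86, 8.91, 7.20, 7.42 and 8.26 RPM. The groups were separate and the MO males lay close together, with a log2 fold change of -0.57 ± 0.16 (SE, adjusted p = 0.0063 in limma). Mrps30, which despite its name sits in the large subunit of the mammalian ribosome, was at 17.8, 22.4 and 26.2 RPM in controls and 16.6, 13.7, 15.8, 15.1 and 13.5 RPM in MO males. Mrps22, a protein found only in mitochondrial ribosomes, was at 13.2, 15.2 and 21.5 RPM in controls and 12.4, 8.26, 9.97, 12.4 and 10.8 RPM in MO males. Their groups were also separate, with log2 fold changes of -0.53 ± 0.16 (SE, adjusted p = 0.008 in limma) and -0.52 ± 0.17 (SE, adjusted p = 0.011 in limma).

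Mrps16, a protein conserved from bacteria, had the largest decrease of the small subunit genes, -0.61 ± 0.19 (SE, adjusted p = 0.0086 in limma). Its control levels were 25.96, 35.3 and 46.97 RPM, and the MO males had 31.7, 22.03, 20.4, 24.4 and 16.8 RPM, where MO male 1 alone lay within the control range. Mrps15, which binds the small ribosomal RNA, was at 27.6, 35.2 and 43.9 RPM in controls and 28.4, 18.99, 22.8, 27.8 and 18.6 RPM in MO males, a log2 fold change of -0.57 ± 0.18 (SE, adjusted p = 0.0089 in limma). In this gene MO males 1 and 4 were both just above the lowest control.

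Mrps18b belongs to a small family of proteins that share a bacterial ancestor, and at 34.2, 49.4 and 63.9 RPM in controls and 43.3, 30.4, 37.5, 33.2 and 24.9 RPM in MO males it had a log2 fold change of -0.51 ± 0.19 (SE, adjusted p = 0.016 in limma). Here MO males 1 and 3 lay within the control range. Mrps31 had the smallest decrease of the subfamily, -0.49 ± 0.19 (SE, adjusted p = 0.016 in limma). It was at 11.6, 16.99 and 24.3 RPM in controls and at 14.7, 10.8, 12.4, 12.3 and 8.80 RPM in MO males, so that 3 of 5 MO males were above the lowest control.

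Complex I was represented by parts of both of its arms and by an assembly factor. Ndufs8, an iron-sulphur subunit of the arm that carries electrons to ubiquinone, was at 46.7, 58.9 and 73.9 RPM in controls and 52.03, 31.4, 38.7, 47.5 and 30.5 RPM in MO males. MO males 1 and 4 lay within the control range, and the log2 fold change was -0.55 ± 0.18 (SE, adjusted p = 0.011 in limma). Ndufv3, an accessory subunit of the module that oxidises NADH, divided the controls. Control males 2 and 4 were both at 26.8 RPM, and controls 1, 3, 5 and 6 were at 49.5 RPM, 41.2 RPM, 43.7 RPM and 56.6 RPM. The MO males were at 26.8, 21.3, 31.7, 31.98 and 19.9 RPM, so that 4 controls were above every MO male and the other 2 were inside the MO range. The log2 fold change was -0.58 ± 0.21 (SE, adjusted p = 0.013 in limma).

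The 3 Ndufb genes encode accessory subunits of the membrane arm. Ndufb10 was at 57.5, 73.3 and 95.9 RPM in controls and 57.7, 48.6, 47.1, 58.98 and 35.2 RPM in MO males, with a log2 fold change of -0.56 ± 0.18 (SE, adjusted p = 0.0098 in limma). For Ndufb3 the corresponding values were 53.8, 73.3 and 101 RPM and 71.3, 52.2, 50.2, 56.9 and 37.3 RPM, and for Ndufb2 they were 61.1, 77.1 and 97.1 RPM and 84.04, 58.1, 43.3, 61.6 and 39.9 RPM. In all 3 genes MO males 1 and 4 were within the control range, and in Ndufb2 MO male 1 was above the control mean. The log2 fold changes of Ndufb3 and Ndufb2, -0.48 ± 0.19 (SE, adjusted p = 0.019 in limma) and -0.49 ± 0.19 (SE, adjusted p = 0.021 in limma), were the smallest of the 23 genes. RefSeq lists further genes named as copies of Ndufb3 and of Uqcr11, and how reads shared with such copies were counted is not given in the sources used here.

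Ndufaf3, which helps to assemble the ubiquinone-binding part of complex I, had the largest fold change and the lowest level. Controls had 2.50, 2.75 and 5.28 RPM and MO males 1 to 5 had 1.26, 3.04, 1.92, 0.00719 and 0.863 RPM. Control male 1 was far above the other controls, MO male 2 lay within the control range, and the value of MO male 4 corresponds to less than 1 read. The log2 fold change was -0.92 ± 0.26 (SE, adjusted p = 0.0068 in limma), and it moved with the number added before the logarithm, from -1.18 with 0.5 added to -0.66 with 2 added. Its rank rests on MO male 4: without that animal it was at -0.64, behind Mrpl14 at -0.68, Ndufv3 at -0.66 and Mrps15 also at -0.64.

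Complex III, the synthesis of haem A for complex IV, and the ATP synthase were represented by 1 gene each. Uqcr11, a small accessory subunit of complex III, was at 81.3, 95.1 and 136 RPM in controls and 89.3, 69.2, 67.1, 77.1 and 50.4 RPM in MO males, a log2 fold change of -0.49 ± 0.19 (SE, adjusted p = 0.016 in limma). Cox15, an enzyme of the synthesis of haem A for complex IV, was at 25.04, 33.6 and 48.97 RPM and 21.9, 18.1, 27.2, 26.5 and 19.7 RPM, with a log2 fold change of -0.56 ± 0.19 (SE, adjusted p = 0.011 in limma). Atp5i, the subunit e that helps ATP synthase to form dimers, was at 86.8, 106 and 152 RPM and 107, 74.2, 68.8, 89.8 and 49.7 RPM, with a log2 fold change of -0.55 ± 0.20 (SE, adjusted p = 0.014 in limma). MO male 1 was inside the control range for Uqcr11, MO males 3 and 4 for Cox15 and MO males 1 and 4 for Atp5i. No structural subunit of cytochrome c oxidase and no catalytic subunit of ATP synthase was listed.

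**Figure D2:**
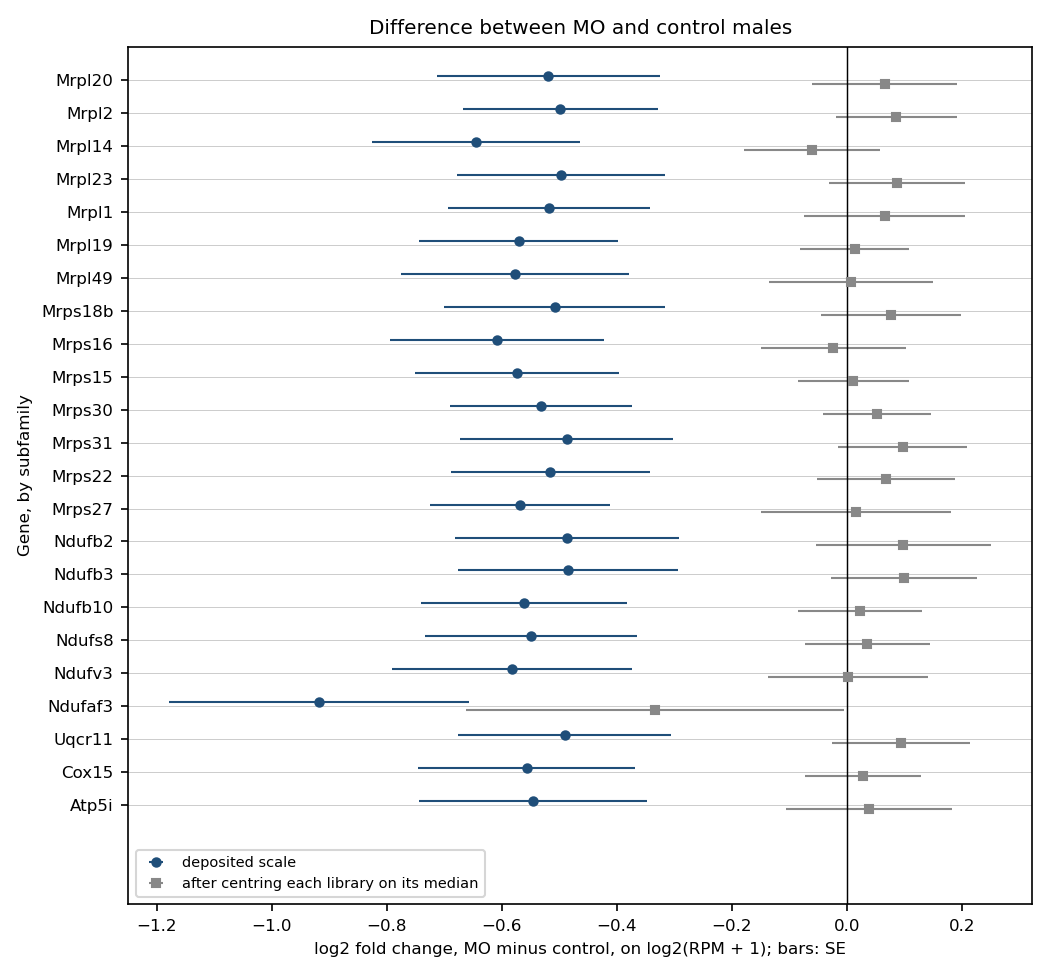
Log2 fold change between MO and control males for each of the 23 genes on the deposited scale (circles) and after each library was centred on the median of the listed rows (squares), with SE bars. All circles lie between -0.92 and -0.48, and all squares between -0.33 and 0.10.

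Each library was also centred on the median log2 value of the listed rows, which takes out the difference that the rows have in common and shifts the median of all rows from -0.58 to 0.01. On that scale 20 of the 23 genes lay above 0, as did 51.8% of the rows, and their median was 0.04. The 3 genes below 0 were Mrpl14 at -0.06, Mrps16 at -0.02 and Ndufaf3 at -0.33. After centring, 0 of the 23 genes passed the limma threshold in either direction (with a smallest adjusted p of 0.997), while 5.27% of all rows passed and 1.76% of all rows passed as lower. These genes were thus lower than in controls by close to the amount that the listed rows shared, and their position near the median is bounded by the listing, because no smaller change could enter the table.

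**Figure D3:**
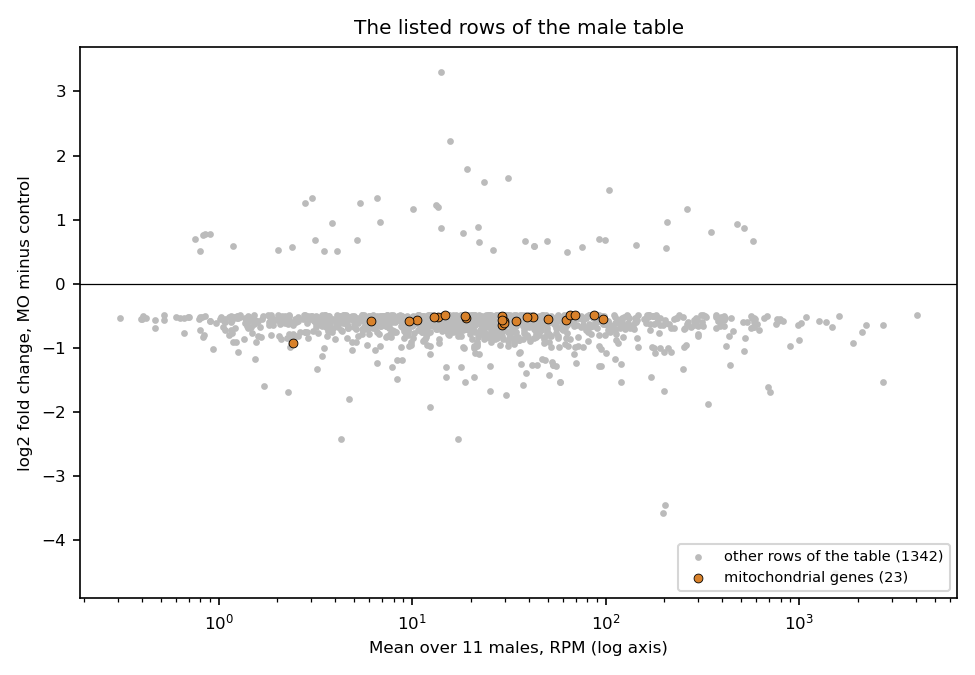
Log2 fold change between MO and control males against the mean level over 11 males (RPM, log axis) for all rows of the male table, with the 23 mitochondrial genes marked. The marked genes lie between -0.92 and -0.48, in the dense band just beyond the smallest listed change.

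The exact permutation test over the 11 animals, adjusted over the table, passed 23 of the 23 genes (adjusted p from 0.013 to 0.044) beside 94.7% of the rows in this direction, and is bound by the same selection. Libraries differed within the groups, and the values were computed with and without some of them. Control males 1 and 5 had 1.20 and 1.52 RPM of Rmrp, an RNA without a poly(A) tail, where the other 4 controls had 36.9 to 51.2 RPM and the MO males 1.71 to 3.11 RPM. Control males 1 and 5 were thus like the MO males in this RNA. Against the other 4 controls, a difference between libraries that Rmrp may mark cannot be told apart from the diet of the mother. Without control males 1 and 5, 22 of the 23 genes passed the limma threshold, beside 94.1% of the rows, and Ndufv3 did not (-0.46; limma adjusted p = 0.064). Against control males 1 and 5 alone all 23 genes were lower, with a median log2 fold change of -0.51, and 5 passed, beside 36.1% of the rows. These 5 were Mrpl14, Mrps27, Mrps30, Ndufv3 and Ndufaf3. The fold change of Uqcr11 was over 1.5 times smaller there (-0.30; limma adjusted p = 0.23). Leaving out MO male 5 left 16 of the 23 genes past the threshold, beside 90.5% of the rows. Atp5i, Uqcr11, Ndufb2, Ndufb3, Mrpl20, Mrps18b and Mrps31 then had log2 fold changes from -0.41 to -0.36 (limma adjusted p from 0.055 to 0.079), and without MO male 3 Ndufb2 alone did not pass (-0.40; limma adjusted p = 0.067), where 95.2% of the rows did.

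The same animals held the ends of their groups in most of the 23 genes. Control male 6 was the highest of the 6 controls in 20 genes and in 71.4% of all rows. Control male 2 was the lowest control in 16 genes and in 31.9% of the rows. Among the MO males, MO male 1 was the highest in 16 genes, against 27.7% of the rows, and MO male 5 the lowest in 17 genes, against 40.8% of the rows. These animals were picked after the values had been seen, and the genes share their libraries, so the counts are a description.

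The subfamily sums show how far apart these animals were. The Mrpl genes summed to 131 RPM in control male 2 and to 224 RPM in control male 6, the Mrps genes to 146 and 239 RPM, and the Nduf genes to 252 and 427 RPM in the same animals. In MO males 5 and 1 the sums were 86.7 and 136 RPM for Mrpl, 102 and 156 RPM for Mrps, and 164 and 293 RPM for Nduf. In each of the 3 subfamilies the sum of MO male 1 was above that of control male 2. The median deviation of the 23 genes from the control mean, on the log2 scale, was -0.33 in control male 2, 0.41 in control male 6, -0.28 in MO male 1 and -0.90 in MO male 5. For the lower rows of the table the corresponding medians were -0.19, 0.41, -0.52 and -0.79.

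**Figure D4:**
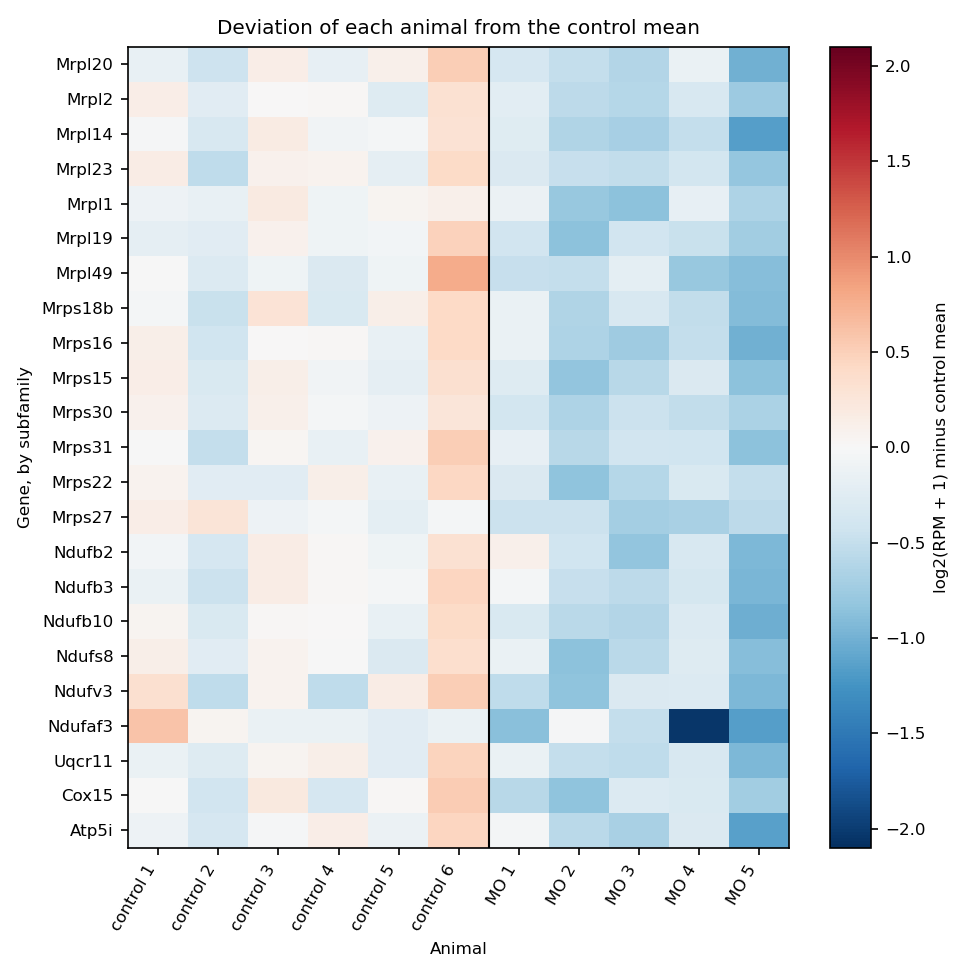
Deviation of each animal from the control mean in each of the 23 genes, on the log2(RPM + 1) scale, with blue for lower and red for higher. Control male 6 is above the control mean in nearly all genes and MO male 5 is far below it, while MO male 1 is the closest of the MO males to the controls.

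**Figure D5:**
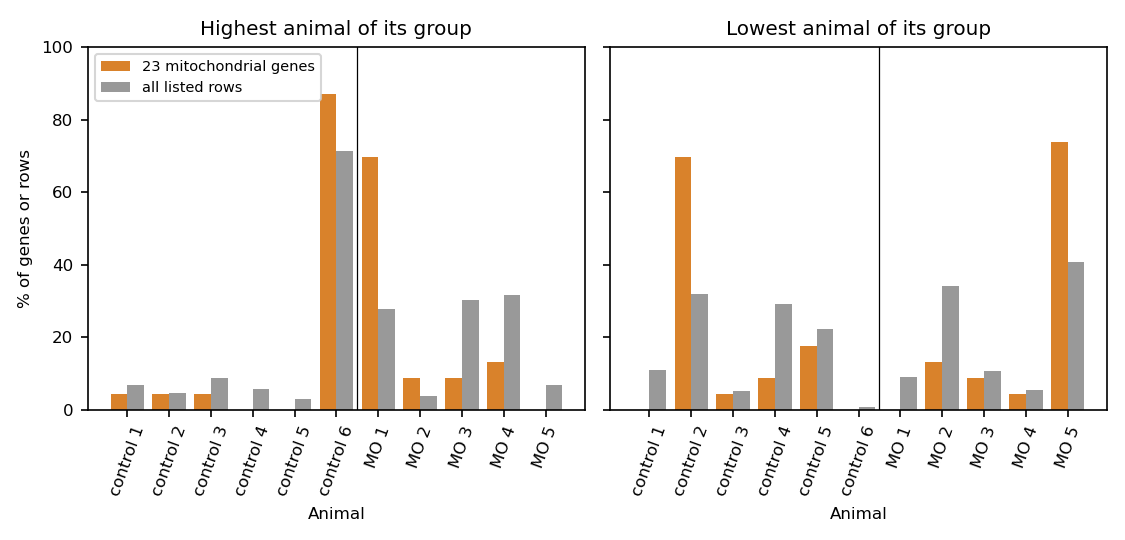
Share of the 23 mitochondrial genes and of all 1365 rows, in percent, in which each animal is the highest (left) or the lowest (right) of its own group. MO male 1 is the highest MO male in 16 of 23 genes and control male 2 the lowest control in 16 of 23.

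In 11 of the 23 genes all 4 end positions were held by these animals, in 5 genes 3 of them and in another 5 (Mrpl1, Mrpl49, Mrps22, Ndufv3 and Cox15) 2 of them. In Mrps27 and Ndufaf3 they held 0. Control male 2 had the highest control level of Mrps27, at 15.2 RPM, and control male 6 had 12.1 RPM. For Ndufaf3 the highest control was control male 1, and MO male 2 was the highest MO male.

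Other facts of the libraries are given by group. All listed rows together summed to 12.02% ± 1.91 of the library total in controls and 7.55% ± 0.906 in MO males (SD, n = 6 and 5). The rows had been selected for this contrast and 1317 of the 1365 were lower, so a lower sum in MO males follows from the listing. Some symbols stand on several rows with the same values, and each row was counted. The 23 genes made up 0.743% to 0.825% of that sum in controls and 0.716% to 0.991% in MO males, which overlap. Depth as read from the steps between low values was 7890000 to 11170000 reads in control males and 10530000 to 11590000 in MO males, and these ranges overlap too. Of 70 markers of Kupffer, stellate, endothelial, bile duct, lymphoid, neutrophil and erythroid cells 7 were listed. All 7 were lower and past the limma threshold, beside 96.5% of the rows. Their summed level was 146 to 215 RPM in controls and 87.6 to 118 RPM in MO males, from rows listed for this contrast. In 1 of the 7 the groups were separate, beside 29.9% of the rows. After centring 0 of the 7 passed in either direction, beside 5.27% of the rows. The 7 were Pdgfrb, Des and Reln of stellate cells, Eng and Vwf of endothelial cells, and Krt19 and Epcam of bile duct cells; none was at 0 in any animal, and their part in the differences was not tested. Of 20 hepatocyte markers only Cps1, the first enzyme of the urea cycle, was listed (1265 ± 362 RPM in controls and 857 ± 51.5 RPM in MO males; SD, n = 6 and 5).

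Further mitochondrial genes were read from 11 lists of 216 symbols, 13 of them the genes of mitochondrial DNA. In the male table were 20, all lower and past the limma threshold, beside 96.5% of the rows. Pnkd is not an established assembly factor and was listed in error (-1.16 ± 0.19, SE). Without it, the median log2 fold change of the other 19 was -0.52, and 11 had separate groups, beside 29.9% of the rows. After centring 0 of the 19 passed in either direction, beside 5.27% of the rows. The list for complex II, cytochrome c and related genes of electron transfer had 0 listed genes of 15, and mitochondrial DNA had 0 of 13. The translation factors, with 2 listed of 18, were Tufm, the elongation factor that brings transfer RNAs to the ribosome, at 108 ± 18.6 RPM in controls and 73.8 ± 9.92 RPM in MO males (SD, n = 6 and 5, with a log2 fold change of -0.53), and Mtfmt, which formylates the initiator transfer RNA, at -0.52 ± 0.17 (SE). Gadd45gip1 and Chchd1, the 2 listed of 6 ribosomal proteins that do not carry an Mrp name, were at -0.55 ± 0.19 and -0.49 ± 0.20 (SE). Of 17 synthetases that charge mitochondrial transfer RNAs, Tars2 and Cars2 were listed, at -0.57 ± 0.17 and -0.50 ± 0.17 (SE).

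Ribosome assembly and ribosomal RNA modification gave 5 listed genes of 35. The assembly GTPases Mtg2 and Gtpbp10 were at -0.50 ± 0.18 and -0.55 ± 0.17 (SE), the assembly factor Rbfa at -0.58 ± 0.16 (SE), the RNA modifying enzymes Rpusd3 and Ftsj2 at -0.68 ± 0.19 and -0.67 ± 0.17 (SE). Of these, Rpusd3, Ftsj2 and Gtpbp10 had separate groups. Among the 4 listed of 39 assembly factors of the respiratory chain were Oxa1l, which inserts proteins into the inner membrane (-0.50 ± 0.17, SE), Tmem70 of ATP synthase assembly (-0.56 ± 0.17, SE) and Ecsit of complex I assembly (-0.48 ± 0.17, SE). Each had separate groups. The fourth was Pnkd. For import and folding only Romo1, a small inner membrane protein, was listed of 23 symbols (-0.67 ± 0.23, SE), with 2 of 5 MO males below every control. Biogenesis and mitochondrial DNA maintenance gave Top1mt and Mgme1 (2 of 23), the proteases Oma1 (1 of 12) and the list for fusion, fission and cristae Apool (1 of 15), with log2 fold changes from -0.52 to -0.49. Of 79 cytosolic ribosomal protein symbols only Rpl37a was listed, at -0.54 ± 0.19 (SE).

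The listed share of each family is given as a description. Of the protein-coding genes, like-named copies included, that RefSeq (assembly GRCr8) names with each prefix, 7 of 48 Mrpl genes (14.6%), 7 of 30 Mrps genes (23.3%), 6 of 56 Nduf genes (10.7%), 1 of 11 Uqcr genes, 1 of 30 Cox genes and 1 of 26 Atp5 genes were in the male table. The 16 Timm and 12 Tomm genes had 0. Over all 23154 protein-coding genes the share was 5.64%, a figure that includes genes with no expression in liver and so is not the share among measured genes.

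The promoters of these genes are given as a description. Being lower together does not set these genes apart, since 96.5% of all rows were lower past the limma threshold. A shared regulator was not tested. RefSeq entries for 250 bases before to 50 bases after the start of the gene (assembly GRCr8) were found for 20 of the 23 genes, in 21 entries, since Mrpl14 had 2. Nuclear genes for mitochondria are known as targets of the factors NRF1, GABP (an ETS factor) and YY1. On either strand the NRF1 motif (GCGC, any base, then TGCGC) was in 5 of the 21 entries (23.8%), against 4.25% of all 33469 promoter entries and 7.10% of the entries of the other listed genes. The ETS motif CCGGAAG was in 8 (38.1%, against 8.75% and 13.7%), and the YY1 motif AANATGGCG in 3 (14.3%, against 3.01% and 3.86%). For the SP1 motif GGGGCGGGG the count was 2 (9.52%, against 9.73% and 20.5%) and for the E-box CACGTG also 2 (9.52%, against 6.42% and 9.07%). The median GC content was 59.7% in these entries, 60% in those of the other listed genes and 51.7% in all. A match describes letters, not a bound site, no motif contains another, and the differences in share were not tested.

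The 4 genes with the largest decreases among those with a motif before the start, Mrpl14, Ndufv3, Mrps27 and Cox15, show how the motifs lie. The sequences are the 250 bases before the start, 5′ to 3′ on the strand of the gene, with the matched letters in capitals. They come from chr9:22811234-22811483 (minus strand) for Mrpl14 (first of its 2 entries), chr20:9613536-9613785 (plus strand) for Ndufv3, chr2:32473954-32474203 (plus strand) for Mrps27 and chr1:252571472-252571721 (minus strand) for Cox15, all in GRCr8. The NRF1 match of Mrpl14 spans its start and is not shown whole. The capitals mark an SP1 match that begins 189 bases before the start in Mrpl14, an NRF1 match that begins 39 bases before it in Ndufv3 and an ETS match that begins 46 bases before it in Mrps27. In Cox15 they mark an NRF1 match that begins 62 bases before the start and an ETS match that begins 24 bases before it.
Mrpl14: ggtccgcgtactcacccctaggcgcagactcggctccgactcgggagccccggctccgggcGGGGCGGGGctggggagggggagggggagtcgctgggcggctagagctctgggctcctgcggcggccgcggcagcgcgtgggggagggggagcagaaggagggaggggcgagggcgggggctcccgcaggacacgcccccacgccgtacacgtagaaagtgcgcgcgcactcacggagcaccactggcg
Ndufv3: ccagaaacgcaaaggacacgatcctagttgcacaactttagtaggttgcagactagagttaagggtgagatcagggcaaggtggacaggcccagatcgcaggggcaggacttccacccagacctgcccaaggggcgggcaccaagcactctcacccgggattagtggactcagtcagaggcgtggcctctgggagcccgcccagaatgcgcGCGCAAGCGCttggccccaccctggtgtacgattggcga
Mrps27: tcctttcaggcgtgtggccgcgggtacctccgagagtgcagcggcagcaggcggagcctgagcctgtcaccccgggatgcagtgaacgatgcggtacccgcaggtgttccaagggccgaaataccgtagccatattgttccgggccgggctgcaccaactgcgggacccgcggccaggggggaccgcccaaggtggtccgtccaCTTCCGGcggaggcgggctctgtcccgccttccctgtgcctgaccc
Cox15: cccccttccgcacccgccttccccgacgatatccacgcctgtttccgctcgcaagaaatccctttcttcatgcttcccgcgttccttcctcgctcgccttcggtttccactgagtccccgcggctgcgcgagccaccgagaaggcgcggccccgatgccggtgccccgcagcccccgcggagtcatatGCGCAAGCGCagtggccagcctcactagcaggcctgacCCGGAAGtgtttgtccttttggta
The NRF1 matches of Ndufv3 and Cox15 have the same letters. Atp5i and Mrps18b also held an NRF1 match together with an ETS match, at 76 and 11 bases before the start in Atp5i and at 20 and 3 bases before it in Mrps18b. Ndufaf3 held none of the 5 motifs in this window.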

How the data were processed

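Total liver RNA was made into TruSeq libraries, per the labels' protocols. Named in the submitters' processing notes are STAR 2.3.1j, the Partek software and build rn5, without their roles. In the sources used here it is not given how reads were assigned to genes or with which annotation. The deposited values are RPM with 1 added, read from the file: the lowest is exactly 1, and after subtraction 81.4% to 86.6% of male values under 9 RPM are whole multiples of 1 step per library (within 0.02 read). Whole reads were not recovered for nearly all rows, so no count test was run. The authors' p-value column holds values up to 0.04964, and their log2 fold change column, recovered as the difference of group means of log2 values in 1365 of 1365 rows, holds sizes of at least 0.48. The authors had therefore selected the rows.

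For a symbol with several rows, the row with the highest mean was kept. log2(RPM + 1) was fitted with limma 3.58.1 with an intensity trend in R 4.3.3, on 6 control and 5 MO males and all rows, with Benjamini-Hochberg adjustment and a threshold of 0.05. All members are named. The fit was tested on simulated data without shifts shared by a library and without selection of rows. That test therefore does not cover the selection behind the p-values given here. The members and lists were chosen with earlier results of these data known. Of the markers of other cell types, 2 are not reported here. Alternatives were centring, other pseudocounts (0.5 and 2), a filter at 5 RPM, no trend, another row per symbol, a replicate block, an exact permutation test and left-out libraries. RefSeq tables gave current symbols for 23 of 23 genes.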

Additional observations from a re-analysis of the deposited data

Results flagged for a closer look

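In 2 of the 46 combinations of a gene and a group, 1 animal lay far from the others of its group by Dixon's test at the 95% level, which chance gives in about 1 of 20. Mrpl49 was at 12.96 RPM in control male 6, where the next control was at 7.09 RPM and the lowest at 5.58 RPM. Ndufaf3 was at 5.28 RPM in control male 1, where the next control was at 3.32 RPM and the lowest at 2.50 RPM. Control male 6 was the highest control in 20 of the 23 genes, but control male 1 was the highest in Ndufaf3 alone.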

How the results depend on the processing

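Centring each library on the median of the listed rows left 0 genes past the limma threshold and 0 with separate groups, and gave medians of 0.039 over the 23 genes, 0.066 for Mrpl, 0.053 for Mrps and 0.030 for Nduf. The log2 fold changes that turned positive were Mrpl20 0.066, Mrpl2 0.087, Mrpl23 0.088, Mrpl1 0.066, Mrpl19 0.014, Mrpl49 0.0073, Mrps18b 0.077, Mrps15 0.011, Mrps30 0.053, Mrps31 0.097, Mrps22 0.069, Mrps27 0.016, Ndufb2 0.099, Ndufb3 0.0998, Ndufb10 0.023, Ndufs8 0.036, Ndufv3 0.0024, Uqcr11 0.095, Cox15 0.028 and Atp5i 0.039; the table holds selected rows, so centring on them takes out what they share. Against control males 1 and 5 alone, 5 genes passed, beside 36.1% of the rows, with fewer samples. In 14 genes the groups were separate there, which is easier to reach against fewer controls. For separate groups after centring and in this setting, the share over all rows is not given here. Leaving out 1 animal at a time gave 16 to 23 genes past the threshold (16 without MO male 5), 4 to 10 with separate groups (10 without control male 2 and 9 without MO male 1) and a median between -0.60 and -0.46. The same replicate number need not mark related animals: over the 5 numbers the correlation of same-numbered animals ran from -0.098 to 0.154, was over 0.1 in 1 and best with its own number in 0 of 5 MO males. With the replicate block 23 genes passed (limma adjusted p up to 0.044), and the share over all rows is not given here. No MO male shares the number of control male 6, so that animal did not enter these fold changes. Their median, -0.46, was the same as without control male 6, so the block is no separate check. The filter at 5 RPM removed Ndufaf3 and left 22 genes, all past the threshold, and the pseudocounts of 0.5 and 2, no trend and the other row per symbol changed no call. For these settings too the share over all rows is not given here. In the main fit 96.5% of the rows passed as lower, so these counts say nothing particular about the 23 genes. DESeq2 was not run, since the values are not counts. At these depths Ndufaf3 rests on few reads. Genes outside the selected rows are not analysed here.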
